A study of Mus musculus with 33 samples.

Results

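A set of 6 miRNAs known from lymphocytes, mmu-miR-181a, mmu-miR-181b, mmu-miR-181c, mmu-miR-181d, mmu-miR-150 and mmu-miR-342-3p (written without the mouse prefix from here on), were followed in whole mouse lung after carbon black exposure. They were taken by their mouse names on the array, without the star that marks the other arm of a precursor, and make up 6 of the 650 miRNAs on the array, 611 of them from mouse. The lungs came from female mice of the inbred strain C57BL/6, not pregnant, which were given 0.162 mg of Printex 90, a nanosized carbon black, into the trachea and killed 1, 3 or 28 days later. Control mice received only the vehicle, 0.9% NaCl in MilliQ water with 10% v/v acellular BAL (bronchoalveolar lavage fluid freed of cells). There were 6, 6 and 6 vehicle lungs and 6, 4 and 5 exposed lungs at days 1, 3 and 28, with 1 array for each mouse. No age is given in the sources used here.

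A miRNA guides the silencing complex to messenger RNAs through its seed, the bases at positions 2 to 8 of the mature strand. The miR-181 family is abundant in thymocytes, where miR-181a sets how strongly a T cell receptor signal is read, and it is also found outside lymphocytes, for example in endothelium. miR-150 is a miRNA of mature B and T cells and represses the transcription factor Myb, while miR-342-3p is made from an intron of Evl, a gene of actin filament growth, and is found in several kinds of blood cell.

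The mature sequences are shown because the 4 miR-181 miRNAs differ by few bases and share a seed, whereas miR-342-3p has another. They are given 5′ to 3′ from RefSeq (GRCm38.p6), with the seed in capitals, for the 5 of 6 miRNAs that matched the table at 7 loci.
miR-181a: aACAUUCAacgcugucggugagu
miR-181b: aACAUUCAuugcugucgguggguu
miR-181c: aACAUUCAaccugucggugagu
miR-181d: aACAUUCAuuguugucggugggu
miR-342-3p: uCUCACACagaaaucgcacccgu

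The seed ACAUUCA was carried by these 4 of 1679 mature mouse miRNAs in the table, and CUCACAC by miR-342-3p alone. miR-181a and miR-181c differed by a single inserted or deleted base. miR-181b and miR-181d differed by the substitution C12U and 1 inserted or deleted base, and miR-181a and miR-181b by A9U, C10U, A21G and 1 inserted or deleted base, with positions counted from 1 at the 5′ end of the first miRNA of each pair. Whether an array probe for 1 of these miRNAs also bound the others was not tested.

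The miR-181 genes lie in pairs. Mir181a-1 (mature strand at chr1:137966468-137966490, plus strand) and Mir181b-1 (chr1:137966650-137966673, plus strand) have 159 bases between their mature strands and lie in no other gene of the RefSeq gene table. Mir181a-2 (chr2:38852741-38852763, plus strand) and Mir181b-2 (chr2:38853845-38853868, plus strand) are 1081 bases apart, within the bounds of the protein-coding gene Nr6a1 and the long non-coding RNA gene Nr6a1os. Mir181c (chr8:84178924-84178945, minus strand) and Mir181d (chr8:84178759-84178781, minus strand) are 142 bases apart and lie in no other listed gene. Mir342 lies within Evl, with miR-342-3p at chr12:108658680-108658702 on the plus strand. miR-181a and miR-181b each come from 2 loci with the same mature sequence, which an array cannot tell apart.

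Values are log2 of the background-subtracted probe signal after each array was scaled to a common 75th percentile, and a miRNA is represented by the brighter of its 2 probes. The 75th percentile itself ranged from 187 to 1211 intensity units over the 33 arrays, with group medians of 365, 635 and 985 in vehicle lungs and 666, 625 and 481 in exposed lungs at days 1, 3 and 28. Exposed arrays were thus the brighter group at day 1 and the dimmer group at day 28. The arrays lay on 9 slides, and each exposed array shared its slide with a vehicle array of the same day. Vehicle arrays held positions 1 and 2 of a slide and exposed arrays positions 3 and 4, and these cannot be told apart from the treatment. The lung label fitted the markers in part. Above background on 33 of 33 arrays were endothelial miR-126-3p, epithelial miR-200a, miR-200b, miR-200c, miR-141 and miR-429, fibroblast miR-199a-3p, miR-199a-5p and miR-214, and smooth muscle miR-143. Other markers of these cells were not, with endothelial miR-126-5p on 23 arrays, epithelial miR-375 on 19 and smooth muscle miR-145 on 1. Of other tissues, miR-1, miR-133b and miR-133a of heart and skeletal muscle were above background on 31, 16 and 10 arrays. Liver miR-122 was above it on 21, and miR-124 and miR-9 of brain on 0.

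The miRNAs differed first in whether they could be measured. miR-181a and miR-342-3p were well above background on 33 of 33 arrays, miR-181c on 30 and miR-181b on 28. miR-181d was above background on 7 arrays, at most 3 of any group, and miR-150 on 2, namely vehicle day 28 replicate 32 and exposed day 28 replicate 8. Neither of these was tested, since a test required at least 4 arrays above background in some group, which left 172 miRNAs and 4 of the 6 described here. The name lymphoid therefore rests on what is known of these miRNAs and not on miR-150, whose signal was not well above background on the other arrays. The star arms miR-150*, miR-181a-1* and miR-181a-2* and the other arm miR-342-5p were above background on 0 of 33 arrays.

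**Figure D1:**
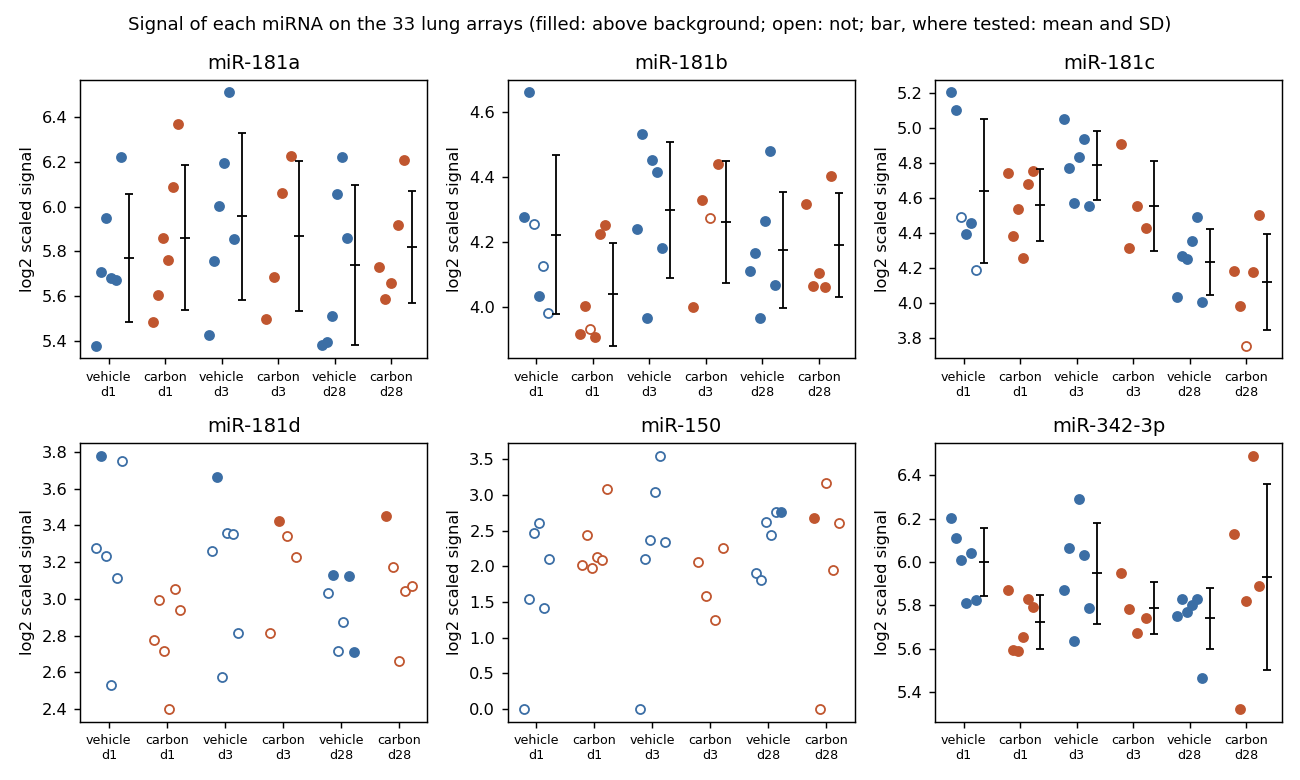
Log2 scaled signal (vertical axis) of each miRNA on the 33 arrays by treatment and day (horizontal axis, d for day), with a point for each lung and, for the 4 tested miRNAs, the group mean with its SD. Filled points were above background: all 33 for miR-181a and miR-342-3p, 7 for miR-181d and 2 for miR-150, and points at 0 for miR-150 are at the floor.

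For miR-150, the processed signal before scaling had a median of 4.62 intensity units and a highest value of 12.9, and 3 lungs stood at the floor of 1 after scaling. The arrays that measured it were bright, with a median 75th percentile of 1153 against 633 on the others. Both of them came from day 28, 1 vehicle and 1 exposed lung. miR-181d was likewise measured on bright arrays, and its 7 positive arrays had a median 75th percentile of 921 against 617 on the others. They were 1, 1 and 3 vehicle lungs and 0, 1 and 1 exposed lungs at days 1, 3 and 28. The background call is made on each array before scaling, and no level is compared between groups for either miRNA. Brightness went the same way for the 5 arrays without miR-181b (353 against 684) and the 3 without miR-181c (313 against 666).

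At no day did limma call a change between exposed and vehicle lungs for any of the 4 tested miRNAs. The same was true of all miRNAs: 0 of 172 (0%) passed an adjusted p of 0.05 at day 1, at day 3 or at day 28, and 16 (9.3%), 2 (1.16%) and 13 (7.56%) had an unadjusted p under 0.05. Among the 12 exposure values of the 4 miRNAs, 1 had an unadjusted p under 0.05, that of miR-342-3p at day 1. The median log2 change over all tested miRNAs was -0.097, -0.036 and -0.034 at the 3 days. In whole lung, fewer cells of a type and less of a miRNA per cell cannot be told apart.

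**Figure D2:**
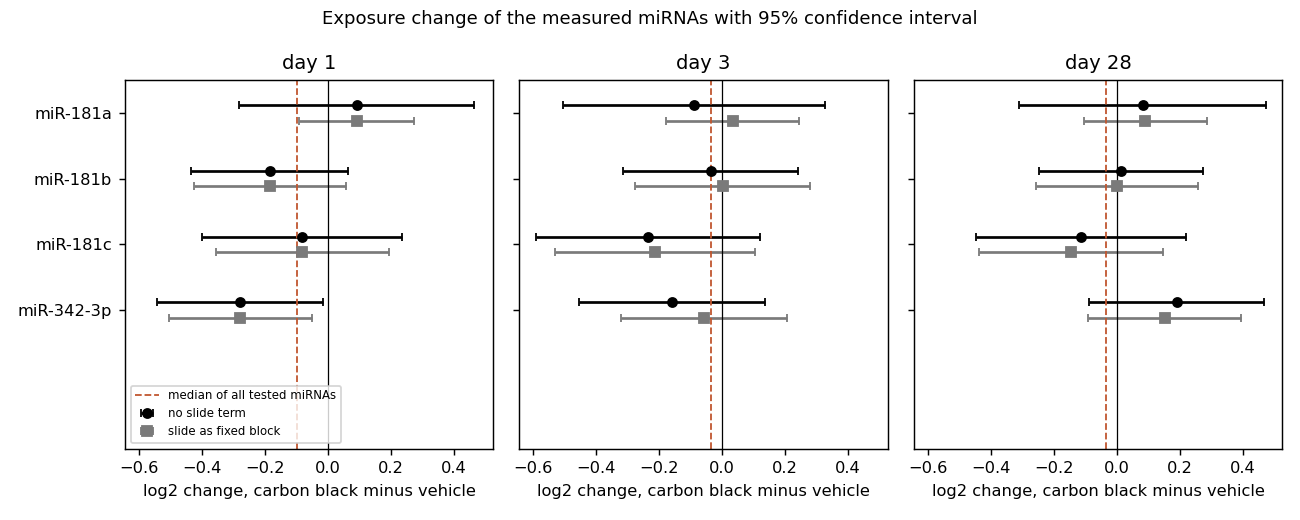
Log2 change, exposed minus vehicle (horizontal axis), of the 4 tested miRNAs at each day, with 95% confidence intervals from limma without a slide term (black) and with slide as a fixed block (grey). The interval of miR-342-3p at day 1 ends just below 0 (-0.54 to -0.013), the other 11 black intervals cross 0, and the dashed line is the median of all 172 tested miRNAs.

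miR-181a, the thymocyte miRNA that tunes T cell receptor signals, had group means between 5.74 and 5.96 without slide in the model. In vehicle lungs its lowest, median and highest values were 5.38, 5.70 and 6.22 after 1 day, 5.43, 5.93 and 6.51 after 3 days, and 5.38, 5.69 and 6.22 after 28 days. In exposed lungs they were 5.49, 5.81 and 6.37 at day 1, while the 4 lungs of day 3 had 5.50, 5.69, 6.06 and 6.23 and the 5 lungs of day 28 had 5.73, 5.59, 5.66, 5.92 and 6.21. All 6 groups overlapped over most of their range. The order of the group means ran from 5.96 in vehicle lungs of day 3 to 5.74 in vehicle lungs of day 28, and each step between neighbours was at most 0.089, below the SD of any group (0.25 to 0.37). The log2 changes with exposure were 0.092 ± 0.18 (SE), -0.089 ± 0.20 and 0.082 ± 0.19 at days 1, 3 and 28 (limma, adjusted p = 0.799, 0.996 and 0.986). Their 95% intervals, -0.28 to 0.46, -0.51 to 0.33 and -0.31 to 0.47, leave room for a change of up to 1.42-fold. The sign turned under 1 of 6 other scalings at days 1 and 3 and under 2 at day 28.

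Most of the spread of miR-181a went with the slide. Its residual SD was 0.33 without and 0.15 with slide in the model, a ratio of 0.45, where the median ratio over the 172 miRNAs was 0.80 and 10 of them had a lower ratio. The mean of miR-181a was 5.45 over the 4 arrays of slide 1 and 6.26 over the 4 arrays of slide 8. On slide 8 all 4 arrays, from both treatments, lay between 6.21 and 6.37, whereas on slide 7 the day 1 vehicle lung at 5.67 and the day 3 vehicle lung at 6.51 lay far apart. The residual ratios were 0.97 for miR-181b, 0.85 for miR-181c and 0.86 for miR-342-3p, which are nearer to the other miRNAs. With slide as a fixed block the exposure changes of miR-181a were 0.092, 0.034 and 0.091, so the sign at day 3 turned. In that fit vehicle lungs differed by 0.21 ± 0.096 (SE) from day 1 to 3 and by -0.28 ± 0.096 from day 3 to 28. Their unadjusted p was 0.0413 and 0.00834 in limma (adjusted p = 0.444 and 0.147), so neither was called. In exposed lungs these differences were 0.15 ± 0.11 and -0.22 ± 0.12 (adjusted p = 0.993 and 0.448). The miRNA whose values followed those of miR-181a most closely over the 33 arrays was miR-30d (Pearson r = 0.89), then miR-26a (0.78) and miR-24-2* (0.77), among 168 compared. Within groups and slides these values were 0.51, 0.73 and 0.59. The arrays share slide and scaling, so these correlations are given as a description.

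**Figure D3:**
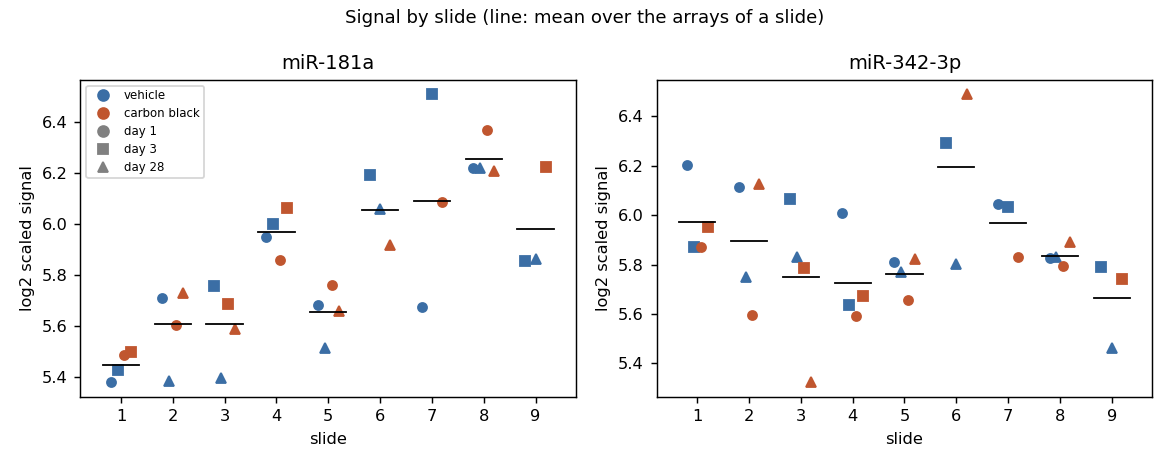
Log2 scaled signal (vertical axis) of miR-181a (left) and miR-342-3p (right) by slide (horizontal axis), with a point for each lung, coloured by treatment and shaped by day, and a line at the slide mean. The miR-181a slide means run from 5.45 on slide 1 to 6.26 on slide 8.

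miR-181b, which shares both of its loci with miR-181a, had the narrowest spread of the 4. It was above background in 3, 6 and 6 vehicle lungs and 5, 3 and 5 exposed lungs at days 1, 3 and 28. In vehicle lungs the lowest, median and highest values were 3.98, 4.19 and 4.66 after 1 day, 3.97, 4.33 and 4.53 after 3 days, and 3.97, 4.14 and 4.48 after 28 days. In exposed lungs they were 3.91, 3.97 and 4.25 at day 1, with 4.00, 4.33, 4.28 and 4.44 in the 4 lungs of day 3 and 4.32, 4.06, 4.10, 4.06 and 4.40 in the 5 lungs of day 28. The exposed lungs of day 1 had the lowest mean, 4.04 ± 0.16 (SD, n = 6), and vehicle lungs of day 3 the highest, 4.30 ± 0.21 (SD, n = 6). No neighbouring means lay further apart than 0.14, so the order carries no step beyond the spread. The log2 changes with exposure were -0.18 ± 0.12 (SE), -0.037 ± 0.14 and 0.014 ± 0.13 (adjusted p = 0.511, 0.996 and 0.986). The sign at day 1 turned under 4 of 6 other scalings and with the dimmer probe (0.50), which was above background on only 8 arrays. Its values followed those of miR-27b (r = 0.64), miR-93 (0.53) and miR-101b (0.52) most closely over the arrays.

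miR-181c, whose gene neighbours that of miR-181d, was the miRNA of the 4 that differed most between times. It was above background in all lungs but 2 of the 6 vehicle lungs of day 1 and 1 of the 5 exposed lungs of day 28. In vehicle lungs the lowest, median and highest values were 4.18, 4.47 and 5.20 after 1 day, 4.55, 4.80 and 5.05 after 3 days, and 4.00, 4.26 and 4.49 after 28 days. In exposed lungs they were 4.25, 4.61 and 4.75 at day 1, the 4 lungs of day 3 had 4.91, 4.31, 4.55 and 4.43, and the 5 lungs of day 28 had 4.18, 3.98, 3.75, 4.17 and 4.50. Every vehicle lung of day 28 lay below every vehicle lung of day 3, while the other pairs of times overlapped. That the groups did not overlap held, in the same direction, for 8 of 172 miRNAs (4.65%) in that comparison.

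In order of the means, miR-181c stood at 4.78 ± 0.20 (SD, n = 6) in vehicle lungs of day 3, 4.64 ± 0.41 (n = 6) in vehicle lungs of day 1, 4.56 ± 0.21 (n = 6) and 4.55 ± 0.26 (n = 4) in exposed lungs of days 1 and 3, and then 4.23 ± 0.19 (n = 6) and 4.12 ± 0.28 (n = 5) in vehicle and exposed lungs of day 28. The step of 0.32 above the day 28 groups was larger than the SD of the groups on either side of it. The other steps, 0.0071 to 0.15, were smaller than the SDs of their neighbours. Both treatments thus had their lowest mean at day 28.

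The difference of day 28 from day 3 in vehicle lungs was -0.55 ± 0.16 (SE), 1.47-fold lower, and missed the threshold (limma, adjusted p = 0.0632). In exposed lungs it was -0.43 ± 0.18 (adjusted p = 0.239). Against day 1 it was -0.40 ± 0.16 in vehicle lungs (adjusted p = 0.119) and -0.44 ± 0.16 in exposed lungs (adjusted p = 0.155). The comparisons with day 3 were added after these levels were seen, and both comparisons of a treatment share the day 28 lungs. Among all miRNAs, 1 of 172 (0.581%) was called between days 3 and 28 in vehicle lungs, 3 (1.74%) in exposed lungs, 12 (6.98%, 11 of them lower, 6.4%, and 1 higher, 0.581%) between days 1 and 28 in vehicle lungs and 0 (0%) in exposed lungs. At an unadjusted p under 0.05 these counts were 18 (10.5%), 31 (18%), 42 (24.4%) and 27 (15.7%). Under this scaling most miRNAs had lower values at day 28, with medians of -0.12, -0.13, -0.17 and -0.13 in that order. With quantile normalization the medians were 0.018, -0.012, 0.028 and -0.015. Relative to the medians, miR-181c lay at -0.43, -0.30, -0.23 and -0.31 here. Under 6 other scalings it lay between -0.47 and -0.13, -0.45 and -0.051, -0.25 and 0.097, and -0.48 and -0.066, in the same order.

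The sign of these 4 differences held under 6 other scalings except in vehicle lungs between days 1 and 28, where it turned under 4 of them (0.0036 with quantile normalization). Their size did not hold. The difference in vehicle lungs between days 3 and 28 shrank to -0.032 with no scaling (adjusted p = 0.954), and those in exposed lungs to -0.072 from day 1 (adjusted p = 0.989) and -0.096 from day 3 (adjusted p = 0.987) with normexp. The difference in vehicle lungs between days 3 and 28 passed when slide was a random block (-0.50, adjusted p = 0.0326) and did not when it was a fixed block (-0.48, adjusted p = 0.0732). It also passed without vehicle day 1 replicate 1 (-0.55, adjusted p = 0.0255), vehicle day 1 replicate 5 (-0.55, 0.0377) or vehicle day 3 replicate 14 (-0.59, 0.0384), and lay between 0.0255 and 0.193 over all arrays left out singly. Array brightness moved with time as well, upwards in vehicle lungs, with a median 75th percentile of 635 at day 3 and 985 at day 28, and downwards in exposed lungs, from 625 to 481. Within groups and slides the correlation of miR-181c with brightness was 0.55, against -0.036 over all 33 arrays, and the part of brightness in the difference was not tested further.

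The dimmer probe for miR-181c, above background on 22 arrays, gave the same order of days 3 and 28 and of days 1 and 28 in both treatments. Its group means at days 1, 3 and 28 were 3.82, 3.98 and 3.47 in vehicle lungs and 3.93, 3.84 and 3.43 in exposed lungs. Its differences of day 28 were -0.51 from day 3 and -0.35 from day 1 in vehicle lungs, and -0.42 and -0.50 in exposed lungs. Over the 33 arrays the 2 probes correlated at r = 0.88, where those of miR-342-3p correlated at 0.68, those of miR-181b at 0.50 and those of miR-181a at 0.49.

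**Figure D4:**
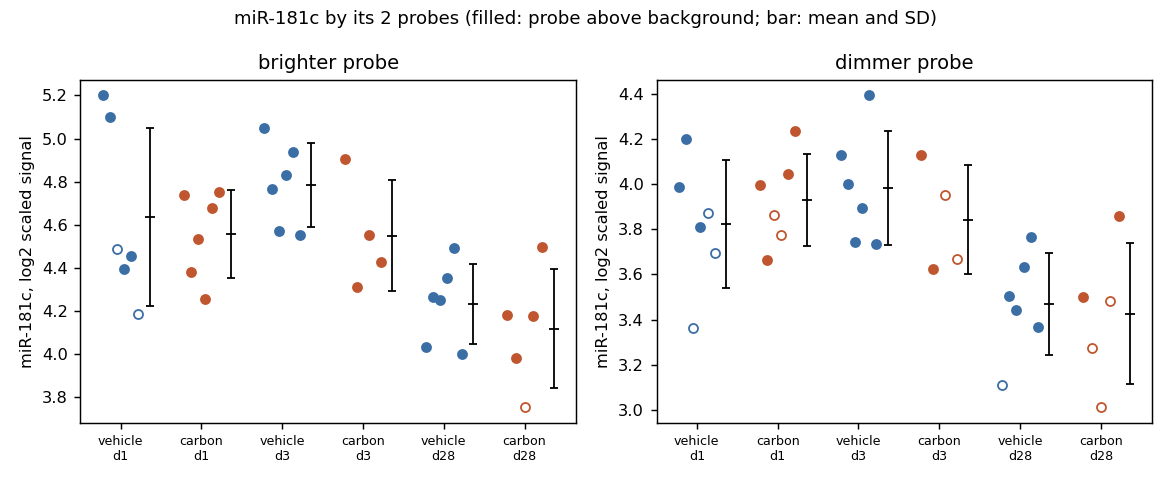
Log2 scaled signal (vertical axis) of the brighter (left) and dimmer (right) miR-181c probe by treatment and day (horizontal axis), with a point for each lung and the group mean with its SD. In both panels the day 28 groups have the lowest means, 4.23 and 4.12 on the left and 3.47 and 3.43 on the right, a difference from day 1 in vehicle lungs that turned under 4 of 6 other scalings.

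Exposure itself left miR-181c without a called change. Its log2 changes were -0.081 ± 0.16 (SE), -0.24 ± 0.17 and -0.11 ± 0.16 at days 1, 3 and 28 (adjusted p = 0.793, 0.996 and 0.985), and the sign at day 1 turned under 5 of 6 other scalings and that at day 28 under 1. At day 3 it was lower in 4 of 4 lungs than in the vehicle lung on the same slide, by -0.45 to -0.020, as were 21 of 172 miRNAs (12.2%), and by its dimmer probe it was lower in 3 of 4 pairs and higher in 1 (0.21). At days 1 and 28 it was lower in 3 of 6 and 3 of 5 such pairs. The miRNAs most like miR-181c over the arrays were miR-542-3p (r = 0.89), miR-218 (0.85) and miR-542-5p (0.85), and these values were 0.79, 0.78 and 0.70 within groups.

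miR-342-3p, the miRNA from the Evl intron, had the largest difference with exposure among the 4. At day 1 its lowest, median and highest values were 5.81, 6.03 and 6.20 in vehicle lungs and 5.59, 5.72 and 5.87 in exposed lungs. At day 3 they were 5.64, 5.95 and 6.29 in vehicle lungs, and the 4 exposed lungs had 5.95, 5.78, 5.67 and 5.74. At day 28 they were 5.46, 5.79 and 5.83 in vehicle lungs, and the 5 exposed lungs had 6.13, 5.32, 5.82, 6.49 and 5.89. The exposed lungs of day 1 lay at or below the lower end of their vehicle group with some overlap, those of day 3 lay inside it, and those of day 28 lay on both sides of it.

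At day 1 the log2 change was -0.28 ± 0.13 (SE, 95% interval -0.54 to -0.013), 1.21-fold lower, with an unadjusted p = 0.0403 in limma and an adjusted p = 0.485 over the 172 miRNAs, so it was not called. miR-342-3p was lower in 6 of 6 exposed lungs than in the vehicle lung of the same slide, by -0.52 on slide 2 to -0.031 on slide 8, and the same was true of 7 of 172 miRNAs (4.07%). With slide as a fixed block the change stayed at -0.28 ± 0.11 (adjusted p = 0.151). Its sign turned under 1 of 6 other scalings, that with none (0.38). Relative to the median of all miRNAs it lay between -0.29 and -0.064 under all 6 of them, and at -0.18 here. The dimmer probe, above background on 32 arrays, gave a smaller value of -0.11 and was lower in 3 of 6 pairs.

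**Figure D5:**
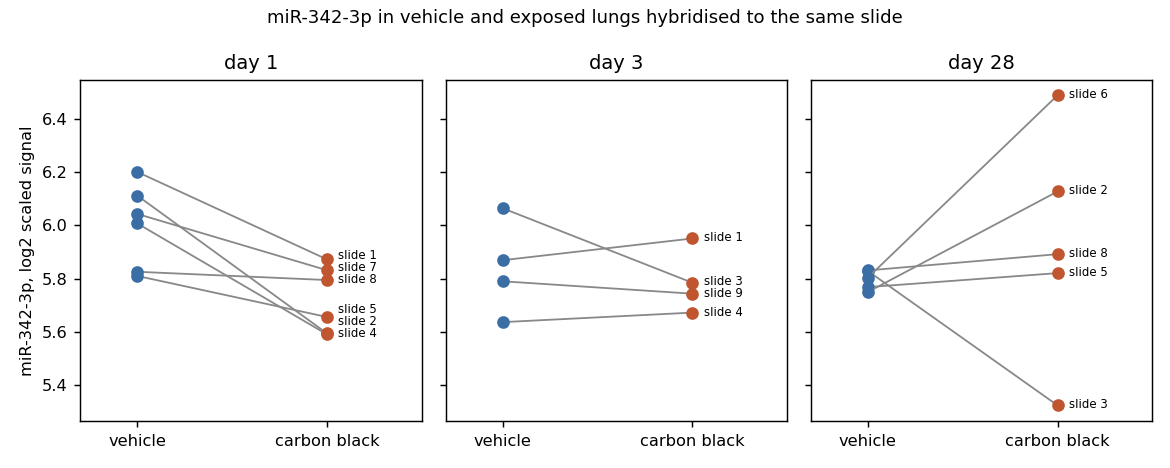
Log2 scaled signal of miR-342-3p (vertical axis) in vehicle and exposed lungs (horizontal axis) of the same day, with a line joining arrays of the same slide. At day 1 all 6 lines fall, a direction that turned without scaling; at day 3 they split 2 and 2, and at day 28 4 rise and that of slide 3 falls (-0.51), with the mean change at day 28 turned under 2 of 6 other scalings.

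At days 3 and 28 the log2 changes of miR-342-3p were -0.16 ± 0.14 (SE) and 0.19 ± 0.14 (adjusted p = 0.996 and 0.868), and the sign at day 28 turned under 2 of 6 other scalings. At day 3 it was lower in 2 of 4 pairs, and at day 28 higher in 4 of 5. The exposed lungs of day 28 had by far the widest spread, an SD of 0.43 (n = 5) against 0.12 to 0.23 in the other groups. Replicate 12 stood at 5.32 and replicate 23 at 6.49, and these were the lowest and the highest of all 33 arrays. The change at day 28 was 0.34 without exposed replicate 12 (adjusted p = 0.230) and 0.050 without exposed replicate 23 (adjusted p = 0.993), so single lungs set its size.

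The exposure change of miR-342-3p at day 28 lay 0.47 ± 0.19 (SE) above that at day 1, with an unadjusted p = 0.0184 and an adjusted p = 0.527. No miRNA was called in that comparison (0 of 172, 0%), and 13 (7.56%) had an unadjusted p under 0.05, 7 above (4.07%) and 6 below 0 (3.49%). The difference was 0.33 without exposed day 28 replicate 23 and 0.62 without replicate 12, and it turned without scaling (-0.81). For miR-181a, miR-181b and miR-181c the same difference was -0.010 ± 0.26, 0.20 ± 0.18 and -0.034 ± 0.23. From day 1 to 28, miR-342-3p differed by -0.26 ± 0.13 (SE) in vehicle lungs and by 0.21 ± 0.14 in exposed lungs. Neither was called (limma, adjusted p = 0.210 and 0.451), and the sign in vehicle lungs turned under 2 of 6 other scalings.

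In order of the means miR-342-3p ran from 6.00 ± 0.16 (SD, n = 6) in vehicle lungs of day 1 over 5.95 ± 0.23 at day 3 of vehicle, 5.93 ± 0.43 at day 28 of exposure, 5.79 ± 0.12 at day 3 of exposure and 5.74 ± 0.14 at day 28 of vehicle to 5.72 ± 0.12 at day 1 of exposure. The largest step between neighbours, 0.14, was smaller than the larger of their SDs. miR-652 (r = 0.54), miR-669f (0.52) and let-7c (0.52) had the values most like it over the 33 arrays, which is a weaker likeness than for miR-181a or miR-181c.

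The 4 miRNAs varied together from lung to lung only in part. Over 33 arrays, miR-181b correlated with miR-181c (r = 0.43, rho = 0.37), with miR-342-3p (r = 0.43, rho = 0.47) and with miR-181a (r = 0.37, rho = 0.35), and miR-181c with miR-342-3p (r = 0.42, rho = 0.43). The permutation p of r was 0.0133, 0.0131, 0.0330 and 0.0152. With adjustment over the 6 pairs, p was 0.0304, 0.0304, 0.0495 and 0.0304 for r and 0.0639, 0.0376, 0.0729 and 0.0384 for rho, in the same order. The permutations moved values over all 33 arrays without regard to group or slide. Since arrays share these, the correlations and their p-values are given as a description. miR-181a correlated with miR-181c at 0.094 (rho = 0.12) and with miR-342-3p at 0.068 (rho = -0.0010), with permutation p = 0.599 and 0.708 (adjusted p = 0.708 for both r) and adjusted p = 0.610 and 0.996 for rho. Without the 2 arrays farthest from the median of the miRNA earlier in the alphabet, the r values were 0.30, 0.35, 0.33 and 0.38 for the 4 pairs first given and -0.058 and 0.034 for the other two. Slide 1 had the lowest slide mean of miR-181a and the highest of miR-181c (4.97). Without its 4 arrays the correlation of miR-181a with miR-181c was 0.50. No other slide was left out.

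miR-181a and miR-181b come from the same loci and miR-181b and miR-181c do not, yet the latter pair had the higher correlation of deviations within groups and slides (0.76 against 0.49, a difference that was not tested). For miR-181b with miR-342-3p, miR-181c with miR-342-3p and miR-181a with miR-181c that value was 0.41, 0.38 and 0.36, and for miR-181a with miR-342-3p it was 0.037. Quantile normalization left 1 of the 4 correlations past the threshold, that of miR-181b with miR-181c (0.52), and lowered those of miR-181b with miR-181a to 0.11 and with miR-342-3p to 0.14, and that of miR-181c with miR-342-3p to 0.23. Correlations with array brightness over the 33 arrays were -0.014, 0.10, -0.036 and -0.18 for miR-181a, miR-181b, miR-181c and miR-342-3p (adjusted permutation p = 0.939 each).

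Other miRNAs linked to lymphocyte development or activation were set beside these from a list of 25, of which 23 were tested and miR-17 and miR-182 were above background on no array. At each day 0 of 23 were called higher and 0 lower with exposure, as for all miRNAs. Their median log2 change was 0.070, 0.056 and -0.013 at days 1, 3 and 28, against -0.097, -0.036 and -0.034 over all miRNAs tested. Of the 23, 14, 14 and 9 were above 0, as were 60, 65 and 75 of all 172. At an unadjusted p under 0.05, 4 were higher at day 1 (miR-155, miR-222, miR-18a and miR-19a), 0 at day 3 and 3 at day 28 (miR-21, miR-146a and miR-155), with 0 lower at any day. Among all miRNAs 9 (5.23%) were higher and 7 (4.07%) lower by that measure at day 1, and at day 28 these counts were 9 (5.23%) and 4 (2.33%). miR-222, which represses the cell cycle inhibitor p27, had the highest fitted value at day 1, but it was above background in 0 of 6 vehicle and 4 of 6 exposed lungs there, and miR-155, induced in activated lymphocytes and macrophages, had the same counts, so no fold is given. miR-18a was above background in 1 of 6 vehicle and 4 of 6 exposed lungs of day 1, and miR-19a in 5 of 6 and 6 of 6. The count of 4 at day 1 thus includes miR-155, miR-222 and miR-18a, which were hardly measured in its vehicle lungs, the group with the lowest median array brightness. The lowest change at day 1 was that of miR-326, at -0.17 ± 0.19 (SE, adjusted p = 0.699). At day 28 miR-21, induced in activated T cells and in injured tissue, was the highest at 0.85 ± 0.23 (adjusted p = 0.157), which passed without the 4 arrays of slide 1 (0.85, adjusted p = 0.0350) and without exposed day 28 replicate 12 (1.09, adjusted p = 0.00205). It was 0.61 without exposed day 28 replicate 23 (adjusted p = 0.728), 0.73 without replicate 8 (0.462) and 0.24 with no scaling (0.525). The lowest fitted value at day 28 was that of miR-210, the hypoxia miRNA, above background in 1 of 5 exposed and 6 of 6 vehicle lungs. At day 3 the highest was again miR-222, above background in 2 of 4 exposed and 2 of 6 vehicle lungs, and the lowest miR-155, in 0 of 4 and 1 of 6, and no size is given for these 3 either.

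Between days 1 and 28 in vehicle lungs, where miR-181c lay at -0.40, 1 of all 172 miRNAs (0.581%) was called higher and 11 (6.4%) lower. Of the 23, 1 was called higher and 1 lower there. These were miR-29b, which represses collagen genes and interferon gamma in T cells, at 0.39 ± 0.12 (SE, adjusted p = 0.0367), and miR-96, which represses the transcription factor Foxo1, at -0.41 ± 0.12 (adjusted p = 0.0367). The sign of miR-29b held under 6 of 6 other scalings and that of miR-96 under 4, the exceptions being no scaling (0.78) and a percentile taken over all probes (0.021). With arrays left out singly, the call was lost for 10 of 33 arrays with miR-29b and for 7 with miR-96, and the adjusted p ranged from 0.0348 to 0.143 for miR-29b and from 0.0243 to 0.151 for miR-96. Of the 14 other alternatives, 7 lost the call of miR-29b (adjusted p up to 0.209), and for miR-96 another 7 lost it besides the 2 that turned it (adjusted p up to 0.967). miR-181a, miR-181b, miR-181c and miR-342-3p passed in neither direction there. Markers of other blood cells were set beside them. The 3 erythroid markers, miR-144, miR-451 and miR-486, were above background on 33 arrays, and 0 were called with exposure at any day. Their log2 changes were -0.22 to 0.17 at day 1, 0.42 to 0.56 at day 3 and -0.25 to -0.10 at day 28. From day 3 to 28 in exposed lungs 3 of 3 were lower, by -0.81 to -0.54, at an unadjusted p under 0.05 in limma (0 called). By that measure 27 of 172 miRNAs (15.7%) were lower. The summed signal of the 3 myeloid markers, miR-223, miR-142-3p and miR-142-5p, all above background on 33 arrays and the latter 2 also on the lymphocyte-linked list, had a log2 range of 9.17 to 10.8 in vehicle and 9.77 to 11.2 in exposed lungs at day 1. Its medians at days 1, 3 and 28 were 10.1, 10.4 and 10.2 in vehicle and 10.8, 10.5 and 10.8 in exposed lungs. Of the 3, 0 were called at any day, miR-223 coming nearest at day 1 with 0.82 ± 0.21 (SE, adjusted p = 0.0994). miR-223 passed under 6 of 15 alternatives, where the adjusted p ranged from 0.00302 to 0.417. It also passed without exposed day 1 replicate 3 (1.02, adjusted p = 0.00156), vehicle day 1 replicate 13 (0.92, 0.0370) or vehicle day 3 replicate 25 (0.82, 0.0498). Whether a shift in other cells took part in the lower value of miR-342-3p at day 1 was not tested.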

How the data were processed

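Lung RNA carrying a Cy3 label was read on 1-colour Agilent miRNA arrays. Feature Extraction 10.7.3.1 gave the spot intensity, linear and with background subtracted, that each deposited file holds, per the file headers. The authors also deposited log2 values for the same arrays (column medians 5.41 to 5.43). Their scaling and centring, not given in the sources used here, remain unknown, and they served only as an alternative.

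Each array had 13715 spots, 13000 of them not controls, for 1857 probes. Control spots and outlier flags (2.30%) were left out, and 0 spots were saturated. Mean signals per probe were scaled to the 75th percentile over the 156 probes above background on all 33 arrays, floored at 1 and taken to log2. Each miRNA is its brightest probe. A miRNA is above background on an array when most spots of any of its probes are well above it. Tested were the 172 miRNAs so on at least 4 arrays of a group. Array number limits precision. limma 3.58.1 (lmFit and eBayes with trend, in R 4.3.3, files read by data.table version 1.17.8) fitted 6 group means, with two-sided tests and Benjamini-Hochberg adjustment over all 172 within a contrast. All 12 contrasts came from the same fit. They are the exposure changes, the 3 differences between these, and the differences within a treatment over time, those of day 28 from day 3 included. Permutations numbered 100000 (Python 3.11.15, scipy 1.17.1, numpy 2.4.6, pandas 2.3.3; figures by matplotlib 3.10.9). The test was checked on simulated data with independent noise, no slide effect and planted changes larger than any main estimate of the 4 tested miRNAs. Its behaviour with shared slides or smaller changes was not tested.

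The miRNAs described, the lists and the tests were chosen with earlier results of these data known. Named beside them by rule were their other arms, the 3 miRNAs most correlated with each, and, of the lymphocyte-linked list, those past the threshold or with the highest and lowest value. The series' design text gives individual mice, 6 in a treatment group, of which 4 and 5 arrays are analysed here for the exposed groups of days 3 and 28. Replicate numbers name arrays only. No pair of arrays correlated above 0.995, so none was counted as a repeat. Alternatives were normexp (offset 50, on the median signal, since the files used hold no mean signal), total gene signal, other scalings, probes, floors and filters, the authors' log2 values, slide as a block, the arrays of slide 1 left out, only the groups compared, and each array left out. The dimmer probe and the comparisons of day 28 with day 3 were added after seeing the data.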

Additional observations from a re-analysis of the deposited data

Results flagged for a closer look

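The vehicle lung of day 28 with replicate number 32 stood apart in miR-342-3p. Its log2 signal was 5.46 (5.46382 before rounding), below the other 5 vehicle lungs of that day, which lay between 5.75 and 5.83, and its gap to the nearest of them was 0.779 of the group's range, above Dixon's critical value for 6 samples. It was 1 of 36 groups tested, and chance alone marks about 1 in 20 groups.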

How the results depend on the processing

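Arrays could not be paired by replicate number, because these numbers run through the whole series and no groups share any. Exposed and vehicle arrays were compared by slide instead, as same-slide pairs and with slide as a block. None of the 4 tested miRNAs was called in an exposure comparison under any alternative run. The signs of miR-181c and miR-342-3p at day 3, and of miR-181c from day 1 to 28 in exposed lungs and from day 3 to 28 in both treatments, held throughout. The exposure change of miR-342-3p at day 3 shrank to -0.059 with slide as a fixed block, and its same-slide pairs split 2 and 2. Array brightness, which differed between groups, limits all directions that turn with the scaling. Without a note to the contrary, the cause of a turn was not tested.

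For miR-181a the exposure change turned at day 1 with normexp (-0.25), at day 3 in the authors' table (0.0026) and with slide as a fixed block (0.034), and at day 28 with the percentile over all probes (-0.16), no scaling (-0.53), the mean over probes (-0.058) and the dimmer probe (-0.20). For miR-181b at day 1 it turned with total gene signal (0.30), all probes (0.0028), no scaling (0.48), the mean over probes (0.16), the authors' table (0.031) and the dimmer probe (0.50). At day 3 it turned with normexp (0.014), the mean over probes (0.088), the fixed block (0.0014), without slide 1 (0.038) and the dimmer probe (0.21). At day 28 it turned with total gene signal (-0.18), quantiles (-0.089), all probes (-0.23), no scaling (-0.60), the mean over probes (-0.028), the authors' table (-0.035) and the dimmer probe (-0.071). For miR-181c at day 1 it turned with total gene signal (0.47), quantiles (0.11), all probes (0.11), no scaling (0.58), the mean over probes (0.014), the authors' table (0.041) and the dimmer probe (0.11), and at day 28 with normexp (0.38). For miR-342-3p it turned at day 1 with no scaling (0.38) and at day 28 with all probes (-0.055) and no scaling (-0.43), and the difference between those days with no scaling (-0.81).

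In vehicle lungs from day 1 to 28, miR-342-3p turned with all probes (0.17) and no scaling (0.93), miR-96 with all probes (0.021) and no scaling (0.78), and miR-181c with total gene signal (0.13), quantiles (0.0036), all probes (0.029) and no scaling (0.78). There the median of all miRNAs moved to -0.63 with normexp and 1.01 with no scaling, and the 4 miRNAs moved with it. Normexp called all 4 lower, miR-181a (-0.52, adjusted p = 0.00505), miR-181b (-0.81, 0.00105), miR-181c (-0.88, 0.000944) and miR-342-3p (-0.66, 0.000944), and no scaling called miR-181a (1.16, 0.0090), miR-181b (1.14, 0.0090) and miR-342-3p (0.93, 0.0160) higher. Between the changes at days 28 and 1, normexp called miR-181b (0.90), miR-181c (0.81) and miR-342-3p (0.81), each with an adjusted p of 0.0214, and no scaling called miR-181a (-1.29, 0.0359) and miR-181c (-1.31, 0.0390) the other way.

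The count of miRNAs called at day 1, 0 in the report, was 6 with quantiles, 3 with all probes, 6 with no scaling, 2 with the mean over probes, 1 among miRNAs above background on all arrays, 3 with no filter, 2 with a random block and 2 without slide 1. At day 3 it was 1 without slide 1, and at day 28 it was 1 with normexp, 1 with a floor of 10, 1 with no filter and 1 without slide 1. Between the changes at days 28 and 1 it was 96 with normexp, 1 with all probes, 119 with no scaling and 1 with no filter. From day 1 to 28 in vehicle lungs, 12 in the report, it was 127 with normexp, 2 with total gene signal, 0 with quantiles, 5 with all probes, 142 with no scaling, 5 with the mean over probes, 5 in the authors' table, 19 with a random block and 4 without slide 1. In exposed lungs, 0 in the report, it was 2 with total gene signal, 1 among miRNAs above background on all arrays, 9 with a random block and 4 without slide 1. From day 3 to 28 in vehicle lungs, 1 in the report, it was 3 with a floor of 10, 6 with a random block, and 0 with normexp, total gene signal, quantiles, all probes, no scaling, miRNAs above background on all arrays, no filter, the authors' table and a fixed block. In exposed lungs, 3 in the report, it was 1 with a floor of 10 and 0 with normexp, quantiles, all probes, no scaling, the mean over probes, miRNAs above background on all arrays, no filter, the authors' table and a fixed block.

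The correlation of miR-181a with miR-181b was 0.11, with miR-181c -0.014, that of miR-181b with miR-342-3p 0.14 and that of miR-181c with miR-342-3p 0.23 after quantile normalization, and with no scaling miR-181a correlated with miR-181c at 0.80 and with miR-342-3p at 0.84.

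With arrays left out singly, the exposure change of miR-181a ranged from -0.0097 to 0.18 at day 1, from -0.21 to 0.034 at day 3 and from -0.016 to 0.18 at day 28. That of miR-181b ranged from -0.10 to 0.050 at day 3 and from -0.040 to 0.075 at day 28, and that of miR-181c from -0.17 to 0.032 at day 1. miR-181c from day 3 to 28 in vehicle lungs ranged from -0.60 to -0.50. Counts ranged from 0 to 2 at day 1, from 0 to 4 at day 28, from 0 to 1 between the changes at days 28 and 3 and those at days 28 and 1, from 0 to 22 from day 1 to 28 in vehicle lungs, from 0 to 1 from day 1 to 3 and 0 to 2 from day 1 to 28 in exposed lungs, and, from day 3 to 28, from 0 to 5 in vehicle and 0 to 6 in exposed lungs.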
